A study of Homo sapiens with 12 samples.

Results

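The genes described here encode the enzymes of active DNA demethylation and the proteins that supply them. They are the 3 TET enzymes TET1, TET2 and TET3, the TET partner OGT, the isocitrate dehydrogenases IDH1 and IDH2, and the base excision repair enzymes TDG, SMUG1, UNG and APEX1. Members were taken by symbol alone, as every probe that the scanner files name for one of these 10 genes. This gave 18 of the 50599 probes on the array, with 4 for TET2, 3 for TET1, 2 each for TET3, TDG and SMUG1, and 1 each for UNG, APEX1, OGT, IDH1 and IDH2. Each of them was printed as 1 spot, and none was lost on any array.

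TET enzymes remove cytosine methylation by oxidising 5-methylcytosine step by step, using oxoglutarate and iron. TDG cuts out the most oxidised bases, APEX1 opens the DNA strand at the site left empty, and repair then puts back an unmodified cytosine. SMUG1 and UNG remove uracil and related bases made by deamination. OGT attaches N-acetylglucosamine to proteins and forms complexes with TET enzymes, whereas IDH1 and IDH2 make oxoglutarate from isocitrate. 5-aza-dC (decitabine) is built into DNA in place of cytosine and traps DNA methyltransferases there, so that methylation is lost as cells divide.

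The cells were Colo320DM, a human colorectal cancer cell line. There were 6 stable clones, which were picked after transfection with a vector carrying EmGFP and antibiotic selection. Of these, 3 expressed a negative control miRNA and 3 expressed an artificial miRNA against TET1. Knockdown clones 1 and 2 carry one artificial miRNA and knockdown clone 3 another. This assignment comes from the methods and is not in the labels. Each clone gave a mock-treated sample and a sample exposed to 5-aza-dC at 1 µM for 72 h, which made the 4 groups mock control, mock knockdown, treated control and treated knockdown with 3 arrays in each. Knockdown and control clones were different isolates, so any lasting difference between isolates enters every comparison between them.

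Signals are given as log2 of the processed intensity minus the 75th percentile of the same array, which lay between 240.7 and 359 intensity units. The share of probes well above background ran from 45.7% to 52.9% across arrays. The 12 arrays were on 2 slides. On slide 1 were all 3 mock knockdown arrays, those of treated knockdown clones 1 and 3, and 2 of the mock control arrays (clones 1 and 2). The other 5 arrays were on slide 2, namely all 3 treated controls, mock control clone 3 and treated knockdown clone 2. Among 8 colorectal epithelial markers, CDX2, KRT8, KRT18 and KRT20 were well above background on all 12 arrays, while CDH1 was not on any array and VIL1 was on 1. Of 3 leukocyte markers on the array PTPRC and CD79A were well above background on all 12 arrays, and of 4 fibroblast markers COL1A1 was. None of 3 endothelial and 5 neuroendocrine markers was above background on every array, and PECAM1 and INSM1 were not on any.

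TET1, the target of the knockdown, was measured by 3 probes. The brightest, A_33_P3295550 (hg19, chromosome 10, 70332072 to 70332131), holds an ATG at base 25 followed by an open reading frame to its end, whereas A_19_P00806490 (70454164 to 70454223) and A_23_P322756 (70453516 to 70453575) lie 122092 and 121444 bases further along the gene. Probe sequences are shown for 1 probe each of 4 members on which the results turn: the knockdown target, a TET2 probe that separates the slides, a SMUG1 probe that separates the clone types, and IDH2, the gene called with 5-aza-dC. Capitals mark the ATG of TET1 and the stop codon that ends the SMUG1 probe.
TET1 A_33_P3295550: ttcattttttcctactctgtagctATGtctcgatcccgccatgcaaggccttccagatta
TET2 A_33_P3238685: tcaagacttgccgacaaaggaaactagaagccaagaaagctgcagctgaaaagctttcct
SMUG1 A_33_P3292794: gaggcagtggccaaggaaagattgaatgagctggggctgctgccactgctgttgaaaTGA
IDH2 A_23_P129209: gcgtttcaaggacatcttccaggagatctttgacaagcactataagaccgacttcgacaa
All 18 probes are 60 bases long. The IDH2 probe (chromosome 15, 90630472 to 90630706, minus strand) and the APEX1 probe (chromosome 14, 20924246 to 20924871) span 235 and 626 bases of the genome, so they leave out 175 and 566 genomic bases inside their span.

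At probe A_33_P3295550 the mock control clones had log2 signals of 4.56, 4.23 and 4.67, and the mock knockdown clones 3.59, 3.51 and 3.57. The groups did not overlap, and the knockdown clones held 54.0%, 51.0% and 52.9% of the control mean. The limma difference was -0.93 (SE 0.19, 95% interval -1.39 to -0.47, adjusted p = 0.276). The exact permutation test gave p = 0.1 (two-sided), the smallest that 3 against 3 clones allow.

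The other TET1 probes were also lower in the mock knockdown clones, at 49.4%, 30.7% and 39.8% of the control mean for A_19_P00806490 and 60.1%, 41.8% and 42.5% for A_23_P322756. Their differences were -1.35 (SE 0.26, adjusted p = 0.243) and -1.08 (SE 0.36, adjusted p = 0.395). Mock control clone 3 was at -1.15 on A_23_P322756, against 0.00 and -0.07 in the other 2 control clones, and there it met knockdown clone 1 at -1.14.

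After 5-aza-dC the 3 probes no longer gave the same picture of knockdown clone 2. At A_33_P3295550 the treated control clones had 4.06, 4.42 and 4.16 and the treated knockdown clones 2.98, 4.31 and 3.35, so that knockdown clone 2 lay within the control range at 106.6% of its mean. The same RNA was at 45.8% of the control mean on A_19_P00806490 and at 48.0% on A_23_P322756, below every treated control clone. Treated knockdown clone 2 is the only treated knockdown array on slide 2. The differences were -0.67 (SE 0.36, 95% interval -1.54 to 0.20, adjusted p = 0.335) for A_33_P3295550, -1.75 (SE 0.32, adjusted p = 0.126) for A_19_P00806490 and -1.07 (SE 0.20, adjusted p = 0.132) for A_23_P322756, with exact permutation p of 0.3, 0.1 and 0.1. Within slide 2, where knockdown clone 2 alone faced the 3 control clones, they were 0.09, -1.13 and -1.06.

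**Figure D1:**
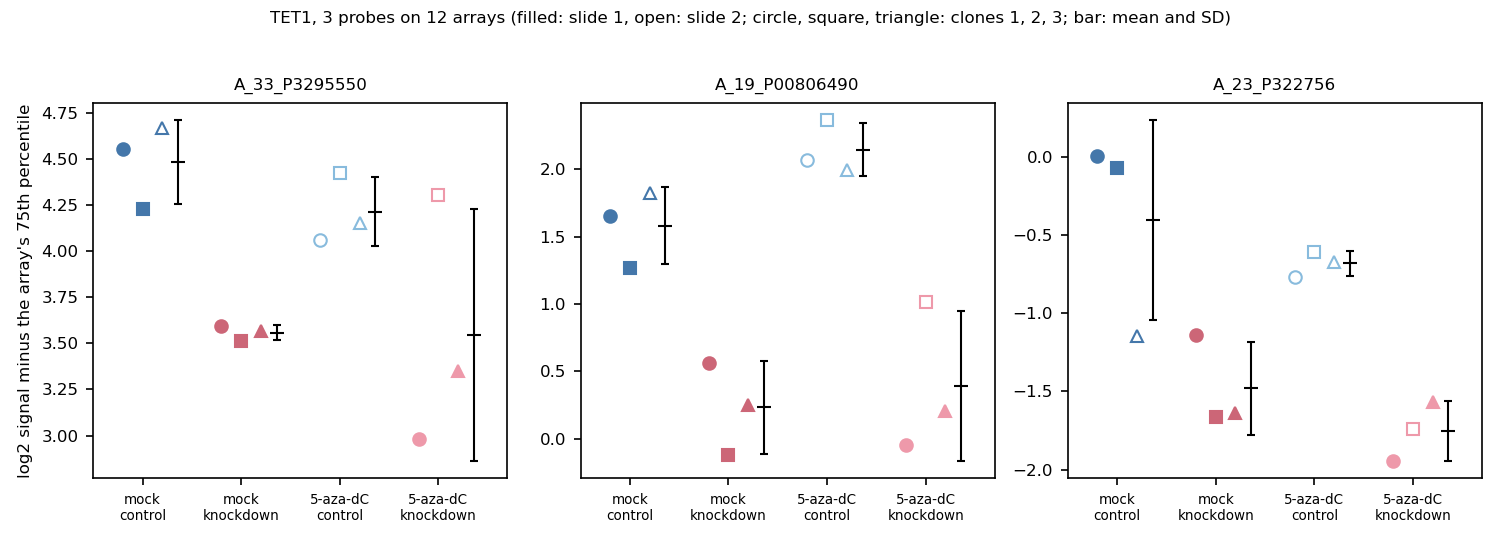
Log2 signal minus the array's 75th percentile (vertical axis) of the 3 TET1 probes in the 4 groups (horizontal axis); each point is 1 clone, filled for slide 1 and open for slide 2, with circles, squares and triangles for clones 1, 2 and 3, and the bars are the group mean and SD (n = 3). Knockdown clones lie below control clones except treated knockdown clone 2, at 4.31 on the first probe, and mock control clone 3, at -1.15 on the third.

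Over the members as a whole, limma called none of them between knockdown and control clones. In the mock arrays 0 of 9 genes tested by their brightest probe and 0 of 16 member probes passed an adjusted p of 0.05, where 0.137% of all 24753 probes tested did. At an unadjusted p under 0.05 there were 2 of 9 genes, TET1 and TDG, against 11.2% of all probes. In the treated arrays 0 of 9 genes and 0 of 16 probes were called, against 0.096% of all probes, and 4 of 9 genes (TET2, TDG, UNG and IDH2) had an unadjusted p under 0.05, against 19.3%. The methods' t-test with Benjamini-Hochberg adjustment also called 0 members in both states. TET3 was too dim to be tested here.

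By estimate, more member genes lay below 0 than above. The difference between knockdown and control was below 0 for 6 of 9 genes in the mock arrays (median -0.39) and for 7 of 9 in the treated arrays (median -0.54), while over all probes 46.3% and 50.9% lay below 0 and the medians were 0.04 and -0.01. The members' medians with slide as a block were -0.43 in mock and -0.21 in treated arrays. For every member, the block in mock arrays compares the knockdown clones with control clones 1 and 2 alone. The remaining mock control array is the only mock array on slide 2, so it adds nothing to that difference. In treated arrays the block compares knockdown clone 2 alone with the control clones, because only these share slide 2. This holds for each member's treated knockdown difference with slide as a block, so slide and clone cannot be told apart there. Groups did not overlap for 2 genes lower and 0 higher in the mock arrays, against 9.09% of all probes lower and 12.2% higher. In the treated arrays they did not overlap for 4 genes lower and 1 higher, against 13.2% and 11.7%. Both states were measured in the same 6 clones and so do not count as separate evidence.

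When the 6 knockdown arrays were set against the 6 control arrays, 4 of 17 member probes did not overlap. They were A_19_P00806490 of TET1, A_23_P204579 of TDG and A_33_P3292794 of SMUG1, all 3 lower, and A_33_P3266719 of TET2, higher. Over all 27200 probes 1.67% were lower and 1.61% higher in this way. Each clone enters with its mock and its treated array, so the 6 arrays of a side are 3 clones. The TET1 probe measures the knockdown target itself, and the members were chosen with earlier results of these data known.

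The 4 probes of TET2 differed in direction, and for some of them the direction changed when slide was a block. TET2 is the family member most often mutated in blood cancers, and it lacks the CXXC domain that TET1 carries. Its brightest probe, A_23_P350187, had 2.45, 2.17 and 1.66 in the mock control clones and 1.56, 2.07 and 1.49 in the mock knockdown clones, so the groups overlapped (-0.39, SE 0.28, adjusted p = 0.595). In treated clones it had 2.10, 1.76 and 1.97 in controls and 1.48, 1.41 and 1.33 in knockdown clones, which did not overlap (-0.54, SE 0.19, adjusted p = 0.230).

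Probe A_33_P3266719 is assigned to another TET2 transcript, NM_017628, while the other 3 probes are assigned to NM_001127208. It ran the opposite way, from -2.26 to -2.17 in mock control clones and from -2.05 to -1.17 in mock knockdown clones (0.58, SE 0.26, adjusted p = 0.468). In treated clones it ran from -2.56 to -2.09 in controls and from -1.83 to -1.50 in knockdown clones (0.67, SE 0.22, adjusted p = 0.216). Neither difference passed the adjusted threshold. The remaining TET2 probes, A_33_P3238685 and A_33_P3238690, had differences of -0.20 and -0.22 in mock and 0.16 and 0.11 in treated clones, with SEs of 0.38 to 0.53. With slide as a block they were -0.81 and -0.79 in mock clones (adjusted p = 0.369 and 0.342). In treated clones they were then -0.65 and -0.69, from knockdown clone 2 alone. The brightest probe gave -0.60 and -0.54 with the block, so that all 3 probes of NM_001127208 were then below 0 in both states, while A_33_P3266719 stayed above 0, at 0.56 and 0.51.

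TET3 could not be followed. Its probe A_33_P3331335 was not well above background on any of the 12 arrays, and A_33_P3235177 was on 3 of them, namely mock knockdown clone 2 and 2 of the 3 treated control clones. The highest of its values was -1.16, in treated control clone 2, and no fold is given.

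TDG was the base excision member with the largest difference. TDG is the glycosylase that removes the formyl and carboxyl forms of cytosine made by TET enzymes. At A_23_P204579 (chromosome 12, 104382442 to 104382501) the mock control clones had 5.54, 5.52 and 5.89 and the mock knockdown clones 4.92, 5.33 and 4.69. The treated control clones had 5.87, 5.86 and 5.72 and the treated knockdown clones 4.61, 5.22 and 4.57. All 6 knockdown arrays lay below all 6 control arrays, with knockdown clone 2 nearest to the controls in both states. The differences were -0.67 (SE 0.24, 95% interval -1.24 to -0.10, adjusted p = 0.414) in mock and -1.02 (SE 0.24, 95% interval -1.60 to -0.44, adjusted p = 0.168) in treated clones, or 62.8% and 49.4% of the control level. The second TDG probe, A_33_P3357445, gave -0.56 (SE 0.21, adjusted p = 0.420) and -0.68 (SE 0.18, adjusted p = 0.188), and its groups did not overlap in either state. With slide as a block the 2 probes gave -0.55 and -0.66 in mock clones. In treated clones they gave -0.59 and -0.69, the values of knockdown clone 2 alone. Both probes are also assigned to the transcript XR_133016, whose share of the signal was not tested.

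SMUG1, which excises hydroxymethyluracil, split the knockdown clones. At A_24_P75072 the mock control clones had 1.52, 1.54 and 1.43 and the mock knockdown clones 0.69, 1.77 and 0.85. In treated clones the values were 1.45, 1.68 and 1.64 in controls and 1.10, 1.59 and 0.96 in knockdown clones. Knockdown clones 1 and 3 were below the controls in both states, and knockdown clone 2 was above the controls in mock and among them after treatment. The difference was -0.39 (SE 0.31, adjusted p = 0.620) in mock and -0.38 (SE 0.24, adjusted p = 0.390) in treated clones. Probe A_33_P3292794, at the end of the coding sequence, gave -0.61 (SE 0.28, adjusted p = 0.476) and -0.77 (SE 0.26, adjusted p = 0.224), and its groups did not overlap in either state. With slide as a block the mock differences of the 2 probes were -0.43 and -0.59. The treated ones were -0.003 and -0.42, the values of knockdown clone 2 alone.

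UNG, the main uracil glycosylase, had 5.87, 6.07 and 7.35 in mock control and 6.06, 6.28 and 6.12 in mock knockdown clones. After treatment it had 6.83, 7.14 and 7.01 in controls and 5.93, 6.79 and 5.90 in knockdown clones, which did not overlap. The difference was -0.27 (SE 0.40, adjusted p = 0.774) in mock and -0.79 (SE 0.29, adjusted p = 0.237) in treated clones. With slide as a block they were 0.19 in mock and, from knockdown clone 2 alone, -0.21 in treated clones. The 5 highest UNG values were those of the 5 arrays on slide 2.

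APEX1, the endonuclease that acts after the glycosylases, had 2.55, 3.00 and 2.60 in mock control and 3.32, 2.92 and 3.09 in mock knockdown clones (0.39, SE 0.22, adjusted p = 0.521). After treatment it had 2.20, 2.50 and 2.36 in controls and 3.12, 2.21 and 3.09 in knockdown clones (0.45, SE 0.30, adjusted p = 0.409). In treated clones the values of knockdown clones 1 and 3 were above the controls, and that of clone 2 was among them. Clones 1 and 3 are on slide 1, clone 2 and the controls on slide 2. With slide as a block the treated difference was -0.14, from clone 2 alone.

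TDG, SMUG1 and UNG all lie on chromosome 12, and other genes near them were lower in the same clones. The median of the 79 other probes within 5 Mb of TDG, as the difference from the mock control mean, was -0.45, -0.07 and -0.47 in mock knockdown clones 1, 2 and 3. Around SMUG1 (267 probes) it was -0.48, -0.01 and -0.44, and around UNG (134 probes) -0.42, 0.05 and -0.41. In treated clones the medians were -0.47, -0.07 and -0.54 around TDG, -0.64, -0.04 and -0.58 around SMUG1 and -0.48, 0.00 and -0.54 around UNG. Knockdown clones 1 and 3 were thus lower and clone 2 near 0 at each of the 3 places, in both states. Over the whole of chromosome 12 (1278 probes) the medians of the mock knockdown clones were -0.28, 0.01 and -0.29, and those of chromosome 13 (561 probes) -0.46, 0.30 and 0.26, while over the 21 chromosomes other than 12 and 13 the clone medians of both states ran from -0.12 to 0.27.

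The members themselves can be read beside these values. TDG differed from the control mean by -0.73, -0.32 and -0.96 in mock and by -1.21, -0.59 and -1.25 in treated knockdown clones, more than its neighbours' median in each clone. In mock clone 1 it lay within the neighbours' quartiles (lower quartile -0.77), and otherwise below the lower quartile. The second TDG probe lay within the quartiles in mock clone 1 and in treated clones 1 and 3. SMUG1 differed by -0.81, 0.27 and -0.65 in mock and by -0.49, -0.00 and -0.63 in treated clones, never below the lower quartile. Its second probe, A_33_P3292794, was below the lower quartile in mock clone 1 (-1.16 against -0.84) and treated clone 2 (-0.42 against -0.35), and otherwise within the quartiles. UNG differed by -0.37, -0.14 and -0.30 in mock and by -1.07, -0.21 and -1.09 in treated clones. In treated clones 1 and 3 it lay below the lower quartile of -0.95, and in treated clone 2 within the quartiles. These neighbourhoods were looked at after the members' values were seen, and their part in the differences was not tested. Near TET1 the neighbours' medians lay between -0.10 and 0.09 and near TET2 between -0.13 and 0.20.

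**Figure D2:**
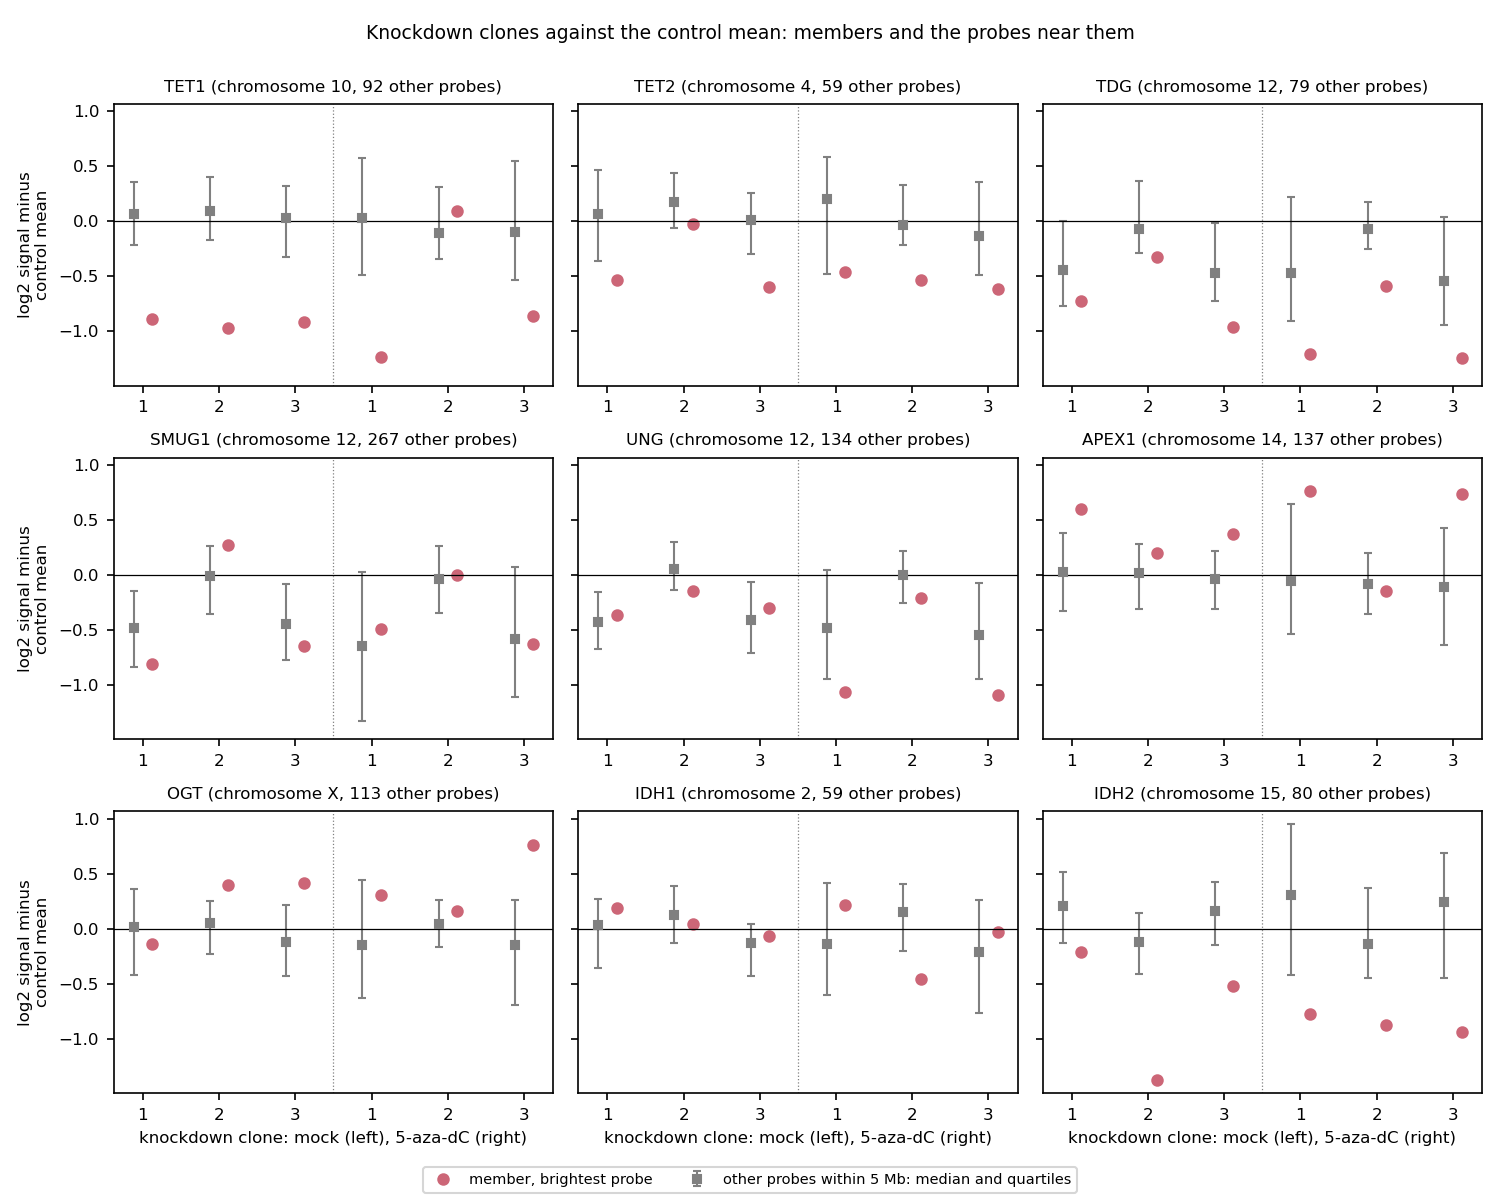
Log2 signal of each knockdown clone minus the control mean of the same state (vertical axis) for the brightest probe of 9 members (circles) and for the other probes within 5 Mb on the chromosome (squares, median with lower and upper quartile), with mock clones 1 to 3 left of the dotted line and treated clones 1 to 3 right of it. Around TDG, SMUG1 and UNG the neighbours' medians of clones 1 and 3 lie between -0.64 and -0.41 and those of clone 2 between -0.07 and 0.05.

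OGT, the O-GlcNAc transferase that binds TET proteins, had 4.89, 4.90 and 4.49 in mock control and 4.63, 5.16 and 5.18 in mock knockdown clones (0.23, SE 0.24, adjusted p = 0.696). In treated clones it had 4.05, 4.20 and 4.36 in controls and 4.51, 4.37 and 4.96 in knockdown clones. These did not overlap, and OGT was the 1 member gene higher in this way (0.41, SE 0.23, adjusted p = 0.355). With slide as a block the treated difference was 0.16, from knockdown clone 2 alone, which was at 4.37 beside control clone 3 at 4.36.

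IDH2, the mitochondrial isocitrate dehydrogenase, had 2.05, 2.35 and 2.54 in mock control and 2.10, 0.94 and 1.79 in mock knockdown clones (-0.71, SE 0.34, adjusted p = 0.485). After treatment it had 3.26, 3.51 and 2.93 in controls and 2.46, 2.36 and 2.29 in knockdown clones, which did not overlap (-0.86, SE 0.22, 95% interval -1.39 to -0.34, adjusted p = 0.178). The difference within slide 2 was -0.87, from knockdown clone 2 alone. IDH1, the cytosolic form, had values between 2.70 and 3.48 in all 12 arrays, with differences of 0.05 (95% interval -0.42 to 0.53, adjusted p = 0.913) and -0.09 (95% interval -0.69 to 0.51, adjusted p = 0.847).

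One array decided how many members were called in the treated comparison. Without treated knockdown clone 2, limma called 6 of the 9 genes, TET1 (-1.05, adjusted p = 0.017), TDG (-1.23), SMUG1 (-0.56), UNG (-1.08) and IDH2 (-0.86) lower and APEX1 (0.75) higher. It then called 7730 of all 24640 probes tested. In that fit both knockdown arrays are on slide 1 and the 3 control arrays on slide 2, so clone type and slide cannot be told apart.

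**Figure D3:**
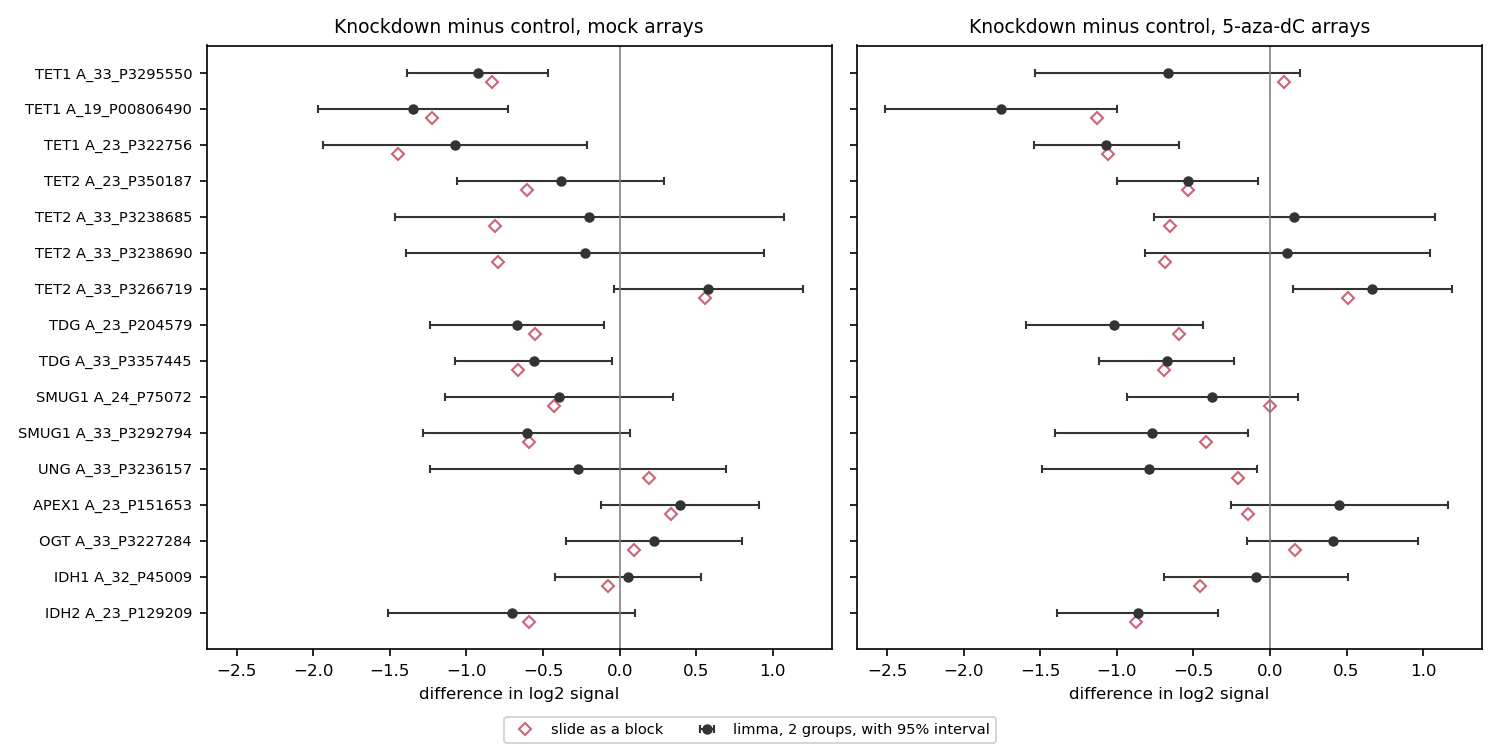
Knockdown minus control difference in log2 signal (horizontal axis) of the 16 member probes tested (rows), for mock arrays (left) and treated arrays (right); circles with bars are the limma estimate of the 2 groups with its 95% interval, and diamonds are the estimate with slide as a block. The 3 TET1 and 2 TDG probes lie left of 0 in both panels by the first estimate, and UNG moves from -0.27 to 0.19 in mock clones with the block. Diamonds on the left are the knockdown clones against control clones 1 and 2, and those on the right are knockdown clone 2 alone against the control clones.

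The treatment comparisons asked how the same genes differed between treated and mock arrays. By limma 0 of 9 member genes were called in control clones, against 5.22% of all 24641 probes, and in knockdown clones 0 of 9, against 2.04% of 25390. At an unadjusted p under 0.05 there were 2 of 9 genes in control clones (IDH2 higher, OGT lower; 26.5% of all probes) and 0 of 9 in knockdown clones (9.15%). By the methods' t-test 0 members were called in either clone type. In control clones the groups did not overlap for 1 gene higher (IDH2) and 2 lower (OGT and APEX1), against 13.6% and 18.8% of all probes. In knockdown clones they did not overlap for 1 gene higher (IDH2) and 1 lower (TET2), against 7.45% and 11.7%. Over all 12 arrays limma called 1 of 10 member genes, IDH2, against 13.2% of all 27287 probes. The balance of these calls depended on the scale: 73.7% of all probes called in control clones were higher after treatment, and 35.0% with the array median in place of the 75th percentile, which moved the median of all probes from -0.02 to -0.23. Over all clones the shares were 55.1% and 19.9% and the medians -0.05 and -0.29. With quantile normalization the shares were 61.7% in control clones and 45.0% over all clones.

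IDH2 was higher after 5-aza-dC in each of the 6 clones. The control clones gained 1.21, 1.16 and 0.38 in log2 signal and the knockdown clones 0.35, 1.42 and 0.49. The 3 clones whose mock and treated arrays were on different slides (control clones 1 and 2 and knockdown clone 2) gained 1.16 to 1.42, and the 3 measured on 1 slide 0.35 to 0.49. Averaged over both clone types IDH2 rose by 0.84 (SE 0.20, 95% interval 0.38 to 1.29, adjusted p = 0.025), which is 1.79-fold. The change was 0.92 (SE 0.23, adjusted p = 0.073) in control clones alone and 0.76 (SE 0.33, adjusted p = 0.560) in knockdown clones alone. The call did not stand with slide as a block (0.75, adjusted p = 0.10), with slide and clone as blocks (0.39, adjusted p = 0.101), with the array median as the scale (0.60, adjusted p = 0.068), or when the arrays of control clone 1, of control clone 2 or of knockdown clone 3 were left out (adjusted p = 0.128, 0.125 and 0.066). With the clone as a block it stood (adjusted p = 0.035).

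OGT was lower after 5-aza-dC in each of the 6 clones, by -0.84, -0.70 and -0.13 in control and -0.11, -0.80 and -0.22 in knockdown clones. The lowest 3 values are again those of the clones split between slides. Its change over both clone types was -0.47 (SE 0.16, adjusted p = 0.082), and -0.27 with slide as a block. APEX1 was also lower in each clone, from -0.71 to -0.00, with a change of -0.33 (SE 0.18, adjusted p = 0.233), and -0.067 with slide as a block. Neither passed the threshold. With the array median as the scale, OGT was called over all clones (-0.71, adjusted p = 0.012) and so was TET2 (-0.47, adjusted p = 0.046), while IDH2 was not. More of all probes were called on that scale than on the main one, and only 19.9% of the calls were higher. The median of all probes was -0.29 there, so calls of lower signal were common and do not single out OGT and TET2.

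TET1 had no common direction after treatment. At A_33_P3295550 the control clones changed by -0.49, 0.20 and -0.51 and the knockdown clones by -0.61, 0.79 and -0.22. Probe A_19_P00806490 went up in all 3 control clones, by 0.42, 1.10 and 0.17, and the groups did not overlap (0.56, SE 0.21, adjusted p = 0.162). In the same clones A_23_P322756 changed by -0.77, -0.54 and 0.47. Within slide 2, where the 3 treated control arrays faced mock control clone 3, the 3 probes gave -0.46, 0.32 and 0.46.

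Some member probes separated by slide, namely those of UNG and OGT and 2 of the 4 of TET2. On the TET2 probe A_33_P3238685 the 5 arrays of slide 2 had -0.94 to -0.04 and the 7 arrays of slide 1 had 0.09 to 1.54, and on A_33_P3238690 slide 2 had -2.08 to -1.02 and slide 1 -0.99 to 0.23. UNG had 6.79 to 7.35 on slide 2 and 5.87 to 6.28 on slide 1, and OGT 4.05 to 4.49 and 4.51 to 5.18. These 4 of 17 member probes did not overlap between the slides, 1 higher and 3 lower on slide 2, against 11.2% and 14.9% of all probes, a share near the background. The other TET2 probes, A_23_P350187 and A_33_P3266719, overlapped between slides. Mock control clone 3 is the only mock array on slide 2. Its place with the treated arrays of that slide follows from how the 4 separating probes were picked. In control clones the treated minus mock difference of A_33_P3238685 was -1.15 (SE 0.52, adjusted p = 0.215) over both slides and 0.08 within slide 2. That of UNG was 0.57 (SE 0.40, adjusted p = 0.387) and -0.36. For OGT the values were -0.56 (SE 0.19, adjusted p = 0.137) and -0.29, and for IDH2 0.92 and 0.69. All 3 treated control arrays are on slide 2, so slide and treatment overlap in these comparisons.

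Leaving out control clone 3, the only control clone with both arrays on slide 2, gave 3 member calls in control clones. They were UNG (1.02, adjusted p = 0.034), OGT (-0.77, adjusted p = 0.035) and IDH2 (1.18, adjusted p = 0.028). Over all probes 5346 were then called, where 1286 of 24641 were called with all control clones. All mock arrays are then on slide 1 and all treated arrays on slide 2, so treatment and slide cannot be told apart.

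The change with 5-aza-dC was not shown to differ between clone types for any member. The interaction term of limma called 0 of 10 genes and 0 of 17 probes, against 0.0366% of all probes, and 0 member probes had an unadjusted p under 0.05, against 2.47%. The interaction was -0.16 (95% interval -1.07 to 0.75) for IDH2 and 0.18 (95% interval -0.54 to 0.90) for OGT.

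**Figure D4:**
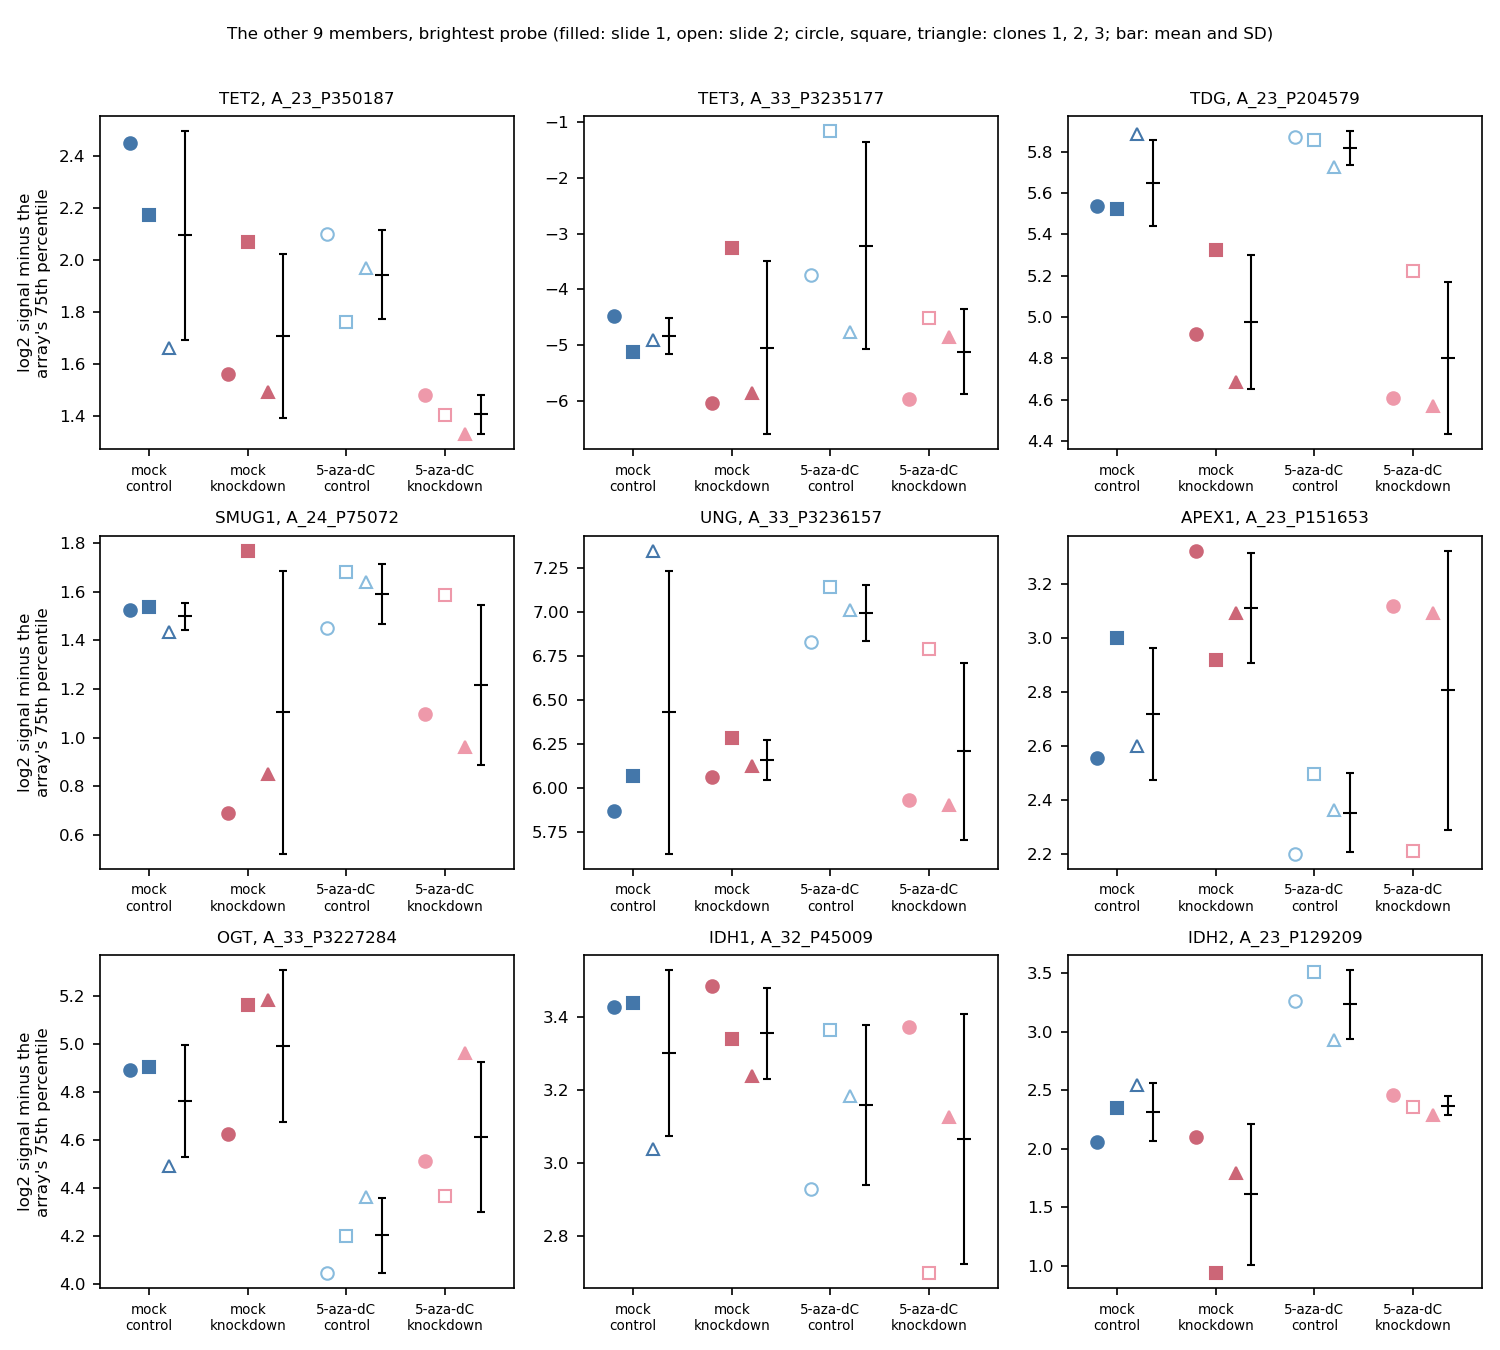
Log2 signal minus the array's 75th percentile (vertical axis) of the brightest probe of the 9 members other than TET1 in the 4 groups (horizontal axis); each point is 1 clone, filled for slide 1 and open for slide 2, and bars are the mean and SD (n = 3). The TDG points of both knockdown groups lie below those of both control groups, the UNG points separate by slide, and TET3 was well above background on 3 arrays only.

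**Figure D5:**
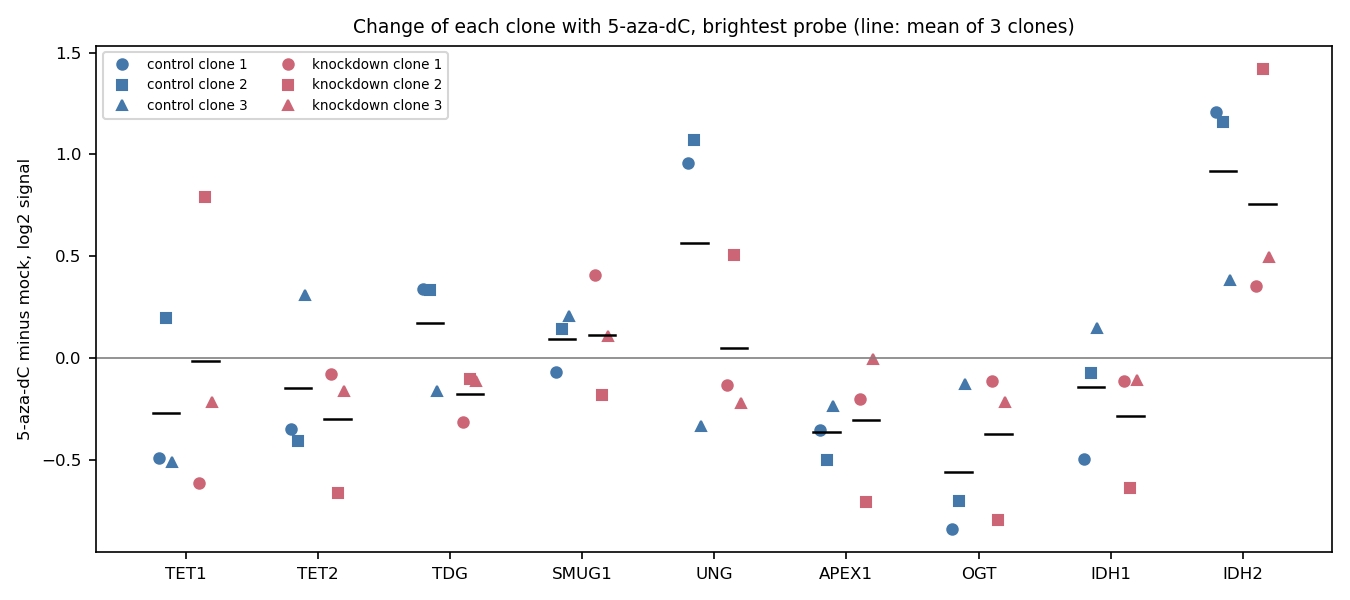
Treated minus mock log2 signal (vertical axis) of each clone for the brightest probe of 9 members (horizontal axis); symbols are clones and lines are means of 3 clones. IDH2 lies above 0 in all 6 clones, from 0.35 to 1.42, and OGT below 0 in all 6, from -0.84 to -0.11.

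Among 48 other genes of the pathway, 47 were on the array. In mock clones 0 of 36 tested differed between knockdown and control by limma, and the median of 0.11 was on the other side of 0 from that of the members. The groups of 6 did not overlap upward and of 1 downward, against 12.2% and 9.09% of all probes. The largest of these were NEIL2 (1.19, SE 0.27, adjusted p = 0.318) and IDH3A (1.12, SE 0.57, adjusted p = 0.503), higher, and OGG1 (-0.62, SE 0.29, adjusted p = 0.478), lower. NEIL2 and OGG1 are glycosylases for oxidised bases, and IDH3A is a subunit of the NAD-dependent isocitrate dehydrogenase. In treated clones 0 of 35 were called, with a median of 0.09. Groups did not overlap for 4 higher and 2 lower, against 11.7% and 13.2% of all probes. Among these 6, NEIL2 (1.17), LIG3 (-0.78) and NTHL1 (0.41) had the largest differences.

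By role, the 12 genes of oxoglutarate and related metabolites had 10 differences above 0 in mock clones, the 8 other glycosylases 6, the 9 later base excision genes 6 and the 5 TET partners and O-GlcNAc genes 4. Over all probes 46.3% were below 0. The metabolite genes' median was 0.07, against 0.04 over all probes, and in treated clones 7 of the 11 tested were above 0. The deaminases and GADD45 genes were mostly dim, with 2 of 13 tested, both below 0.

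After 5-aza-dC limma called 1 of 35 other pathway genes in control clones, against 5.22% of all probes. CXXC5, a CXXC-domain protein linked to TET2, had -0.24, -0.54 and -0.12 in mock and 0.49, 0.94 and 0.75 in treated control clones (1.03, SE 0.20, adjusted p = 0.041). In knockdown clones 0 of 36 were called, against 2.04% of all probes. There CXXC5 had -0.15, -1.68 and 0.96 in mock and 0.78, 0.60 and 1.11 in treated clones, so that all 6 clones were higher after treatment. With slide as a block the adjusted p in control clones was 0.183. Over all clones 1 of 37 was called, against 13.2% of all probes. This was IDH3B, a subunit of the same NAD-dependent enzyme, which fell by 0.37 on the log2 scale (SE 0.10, adjusted p = 0.043) and by 0.45 with slide as a block (adjusted p = 0.023). In knockdown clones the groups of 6 of 36 did not overlap, all lower, against 11.7% of all probes lower and 7.45% higher. Among these 6, OGDH (-0.86), FEN1 (-0.57) and NTHL1 (-0.42) had the largest differences.

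Among the genes whose pattern over the 12 arrays was nearest to the brightest TET1 probe were DMPK, ARHGAP35, KAT6B and CRAMP1L. After each probe was centred on its own mean, their root mean square distances from TET1 were 0.14, 0.18, 0.21 and 0.21 log2 units, where the median of 16724 probes was 0.62. The other 2 TET1 probes lay at 0.50 and 0.47. The mock difference between knockdown and control of these 4 genes ran from -0.97 to -0.55 and the treated difference from -0.91 to -0.51, beside -0.93 and -0.67 for TET1. The genes were picked for likeness to TET1 over these same arrays, so similar differences follow from the choice.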

How the data were processed

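Colo320DM clones were measured on 12 one-colour Agilent expression arrays, 3 in each of 4 groups. The deposited scanner files hold intensity values that the authors' Agilent Feature Extraction 10.7.3.1, per the file headers, had background-corrected (processed signal), and values in the deposited table of the whole series match that intensity within 0.497%. Probe positions are those of the files (hg19). Gene symbols are those of the array's design.

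Outlier-flagged and control spots were dropped, spots of a probe were averaged as log2 intensity, and each array's 75th percentile was subtracted. limma 3.58.1 in R 4.3.3 (lmFit, eBayes) was fitted to the 2 groups compared, or to all 12 arrays for the mean treatment effect and the interaction, with Benjamini-Hochberg adjustment over all probes tested. Probes were tested if well above background on at least 3 arrays of the fit, and called at an adjusted p under 0.05. The fit was checked on simulated data. In knockdown against control, p-values measure the spread between the arrays of a group, which holds clone and, where a group is on both slides, slide. Treatment and interaction fits without a clone block took the mock and treated arrays of a clone as independent. The number of arrays limits precision.

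Each member is described by its probe of highest mean signal, with its other probes beside it. Other pathway genes were named if called, otherwise the 3 with the largest difference among those with groups that do not overlap. The genes nearest to TET1 in pattern were taken by root mean square distance, and 1 of the 5 nearest is not reported here. Members and lists were chosen with earlier results of these data known. Same-numbered mock and treated arrays are the same clone, and their deviations from the group means correlated at 0.21 to 0.32 (control) and 0.43 to 0.52 (knockdown). Alternatives were other scalings, background correction and filters, the series table, slide and clone blocks, all arrays in 1 fit, the methods' t-test, and each clone left out.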

Additional observations from a re-analysis of the deposited data

How the results depend on the processing

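Alternatives were run for every comparison. Among differences of single member genes 667 kept direction and side of the threshold, 53 turned direction, 12 became and 6 ceased to be called, and the count of member genes called was the same in 92 runs, higher in 5 and lower in 5. The causes were not tested, except that filters and omitted clones leave fewer probes or arrays. The number of arrays, and signal over background for TET3, limit what could be seen. The alternatives were quantile normalization, normexp with quantile normalization, the array median, the series table, both filters, outlier spots kept, the blocks, all 12 arrays in 1 fit and the methods' t-test.

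Of all probes, 34 were called in mock knockdown against control, and 5 when required above background on every array, 84 with all 12 arrays, 115 with these and slide as a block, 4 by the t-test and 8 to 94 without 1 clone. In treated clones 24 were called, and 10 with normexp, 39 with the array median, 12 with no filter, 0 with the every-array filter, 57 with slide as a block, 187 with all 12 arrays, 37 with these and slide, 3 by the t-test and 0 to 7730 without 1 clone. After 5-aza-dC 1286 were called in control clones, and 2539 with the array median, 427 with the every-array filter, 516 with slide as a block, 358 by the t-test and 0 to 5346 without 1 clone. In knockdown clones 519 were called, and 267 with normexp, 50 with the every-array filter, 818 with all 12 arrays, 844 with these and slide, 211 by the t-test and 0 to 40 without 1 clone. Over all clones 3612 were called, and 8549 with the array median, 1994 with the every-array filter and 1412 to 4874 without 1 clone. The interaction had 10 calls, 4 with no filter, 4 with the every-array filter and 1 to 9 without 1 clone.

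Member genes called in treated knockdown against control were 0 to 6 without 1 clone, the 6 only without knockdown clone 2. With 5-aza-dC in control clones they were 1 with normexp (IDH2, 0.89, adjusted p = 0.040), 1 with the array median (OGT, -0.77, adjusted p = 0.050) and 0 to 3 without 1 clone, the 3 only without clone 3. Over all clones they were 2 with the array median, 0 with slide as a block, 0 with the replicate and slide blocks, and 0 to 1 without 1 clone.

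As a replicate block, the clone number gave 20 calls in mock and 7 in treated knockdown against control, and with slide 0 and 4. Knockdown and control clones of 1 number are different isolates, with correlations of -0.03 to 0.09, and no pair exceeded 0.1. In the treatment comparisons the replicate block changed no member call. With slide added it left 0 probes called in control clones and 1672 over all clones. The interaction had 2 calls with the replicate block and 5 with slide added.

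In mock knockdown against control, slide as a block leaves control clones 1 and 2, as does leaving out control clone 3. With 5-aza-dC in knockdown clones it leaves out the treated array of clone 2. Directions turned as follows. With slide as a block, mock knockdown differences became 0.19 for UNG and -0.077 for IDH1, treated ones 0.092 for TET1 and -0.14 for APEX1. The 5-aza-dC differences became 0.28 for TET2, -0.069 for TDG, -0.36 for UNG and 0.12 for IDH1 in control clones, and -0.075 for SMUG1 and -0.24 for UNG in knockdown clones. With the replicate block and slide they were 0.20 for UNG, -0.0041 for OGT and -0.019 for IDH1 in mock, -0.29 for APEX1 in treated, 0.31 for TET2, -0.16 for TDG, -0.34 for UNG and 0.15 for IDH1 with 5-aza-dC in control clones, -0.18 for UNG in knockdown clones, and -0.029 for OGT and 0.14 for IDH2 in the interaction. With all 12 arrays and slide they were 0.10 for UNG and -0.10 for IDH1 in mock, 0.067 for TET2, -0.16 for TDG, -0.061 for SMUG1, -0.19 for UNG and 0.17 for IDH1 with 5-aza-dC in control clones, and -0.33 for UNG in knockdown clones. The array median gave -0.046 for TDG and -0.12 for SMUG1 in control clones and -0.15 for SMUG1 and -0.21 for UNG in knockdown clones. TET1 in knockdown clones was 0.040 with quantile normalization and 0.061 with normexp. With another probe, TET2 was 0.58 in mock and 0.16, 0.11 and 0.67 in treated knockdown against control, TET1 0.56 and TDG -0.34 with 5-aza-dC in control clones, and TET1 0.16 in knockdown clones. Without 1 clone, mock knockdown differences ran from -0.55 to 0.19 for UNG and from -0.077 to 0.12 for IDH1, and the treated one of IDH1 from -0.25 to 0.091. With 5-aza-dC IDH1 ran from -0.28 to 0.037 in control clones, and in knockdown clones TET1 from -0.42 to 0.29, SMUG1 from -0.036 to 0.26 and UNG from -0.18 to 0.19. The interaction of IDH2 ran from -0.49 to 0.042.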
